A study of Mus with 8 samples.

Results

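Actn3, Nrap, Mypn and Klhl30 are 4 genes of striated muscle whose levels were higher in all 4 MC38 tumours from Ext1S100a4Cre hosts than in any of 4 tumours from WT hosts. They were chosen on these arrays for that pattern, so their host differences are given below as a description and carry no test. The 4 genes are among 31281 genes and transcripts measured well enough to compare, and 5 of the 56605 probes on the array read them. MC38 is a mouse colon cancer line that was placed under the skin of the hosts. The WT hosts were B6 mice. The Ext1S100a4Cre hosts, labelled B6 as well, carried Ext1 flox/flox and S100a4-Cre. Ext1 encodes a polymerase of heparan sulfate, and S100a4, whose promoter drives the Cre, is on in fibroblasts but also in other cells such as macrophages, so the deletion need not be limited to 1 cell type. The transplanted cells had the same Ext1 genes in both host groups. Each tumour was taken 25 to 30 days after transplantation, total RNA of the whole tumour was labelled with Cy3, and each tumour was read on 1 array. In such bulk RNA, more cells of a type and more RNA per cell cannot be told apart.

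Striated muscle is built from sarcomeres, in which actin filaments are anchored at Z-discs and pulled by myosin. Actn3 encodes the actinin of fast fibres, which crosslinks actin filaments at the Z-disc. Mypn encodes myopalladin, a scaffold that ties actinin to nebulin family proteins in the Z-disc and I-band. Nrap encodes a nebulin-related anchoring protein that acts in myofibril assembly and is found where fibres attach to tendon and to each other. Klhl30 encodes a Kelch family protein; Kelch proteins commonly act as adaptors of Cul3 ubiquitin ligases, and the role of Klhl30 itself is less studied.

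Levels are log2 of the background-subtracted intensity minus the array's 75th percentile, so 0 is the 75th percentile and 1 unit is 2-fold. Tumours 1 and 4 of the Ext1S100a4Cre host differed from the other 6 in the signal of the whole array and in Y-linked genes. Their 75th percentiles were the lowest (854.8 and 846.9, in a range of 846.9 to 1265), and the share of probes well above background ran from 65.65% to 71.09% over the 8 arrays with its 2 lowest values on these arrays. On them 0 of 4 Y-linked genes were well above background, although all 4 were on each WT host array. The Y-linked gene Eif2s3y was at -8.53 and -8.15 there and between -2.25 and -0.40 in the other 6 tumours. The sex of the hosts is not in the labels, so it cannot be told apart from other differences between tumours 1 and 4 and the other 6. The part of these differences in the results below was not tested. The arrays lay on 1 slide, in 2 rows, each with 2 tumours from WT and 2 from Ext1S100a4Cre hosts. Ext1 itself differed by -0.28 log2 units between the hosts (SE 0.18), with an adjusted p of 0.747 in limma. The MC38 label was checked with the epithelial genes Krt8 and Epcam, which were well above background on all 8 arrays.

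Actn3, on chromosome 19 and read by 1 probe, was dim in every WT host tumour. Its levels were -5.37, -4.86, -5.43 and -5.91 in WT host tumours 1 to 4. In Ext1S100a4Cre host tumours 1 to 4 they were -3.62, -1.15, -1.05 and -3.57. The groups did not overlap, and tumours 2 and 3 of the Ext1S100a4Cre host stood far above tumours 1 and 4, which in turn stood above every WT host tumour. The means were -5.39 ± 0.43 and -2.35 ± 1.44 (SD, n = 4 each; WT host first), a difference of 3.04 log2 units, or 8.25-fold. Tumours 1 and 4 alone averaged 3.47-fold above the WT host mean. The probe was well above background on all 8 arrays, with processed intensities from 18.6 to 43.7 in the WT host, so the WT host values lie close to the background. The distance between the groups can be given as the lowest Ext1S100a4Cre host level minus the highest WT host level, here called the gap. For Actn3 it was 1.24 log2 units, against an error of 0.21 that the scanner software assigns to those spots.

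Mypn, on chromosome 10 with 1 probe, was not measurable in every WT host tumour. Its WT host levels were -5.22, -5.83, -7.67 and -6.72 in tumours 1 to 4, and the readings of tumours 3 and 4 were not well above background. Its Ext1S100a4Cre host levels were -4.10, -2.92, -2.81 and -4.20 in tumours 1 to 4, all well above background. Every Ext1S100a4Cre host tumour exceeded WT host tumour 1, the highest of that group, and tumours 2 and 3 were again above tumours 1 and 4. The means were -6.36 ± 1.07 and -3.51 ± 0.74 (SD, n = 4 each), which differ by 2.85 log2 units or 7.21-fold. With the unmeasured WT host readings raised to the lowest signal that is well above background on their arrays, the fold was 5.88. Tumours 1 and 4 alone were 4.62-fold above the WT host mean, or 3.77-fold with those readings raised in the same way, and the gap was 1.02 with a scanner error of 0.23.

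Nrap, also on chromosome 19, was read by 2 probes, of which 1 gave a measured level in tumours 1 and 4. The bright probe, well above background on all 8 arrays, stood at -0.09, -0.19, -1.43 and -1.57 in WT host tumours 1 to 4. It stood at 0.96, 1.50, 1.28 and 0.89 in Ext1S100a4Cre host tumours 1 to 4. The 4 Ext1S100a4Cre host values lay close together (SD 0.28, mean 1.16), while the WT host tumours fell into a higher pair, 1 and 2, and a lower pair, 3 and 4 (mean -0.82 ± 0.79, SD, n = 4). The difference was 1.98 log2 units or 3.93-fold over all 4 tumours, and 3.35-fold for tumours 1 and 4, with a gap of 0.98 and a scanner error of 0.19. Of the 4 genes, Nrap by this probe had the smallest spread in the Ext1S100a4Cre host.

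The dim Nrap probe was well above background only in tumours 2 and 3 of the Ext1S100a4Cre host, where it read -5.11 and -4.04. It read -8.47 and -8.36 in tumours 1 and 4, inside the WT host range of -9.06 to -7.99, and none of those 6 readings was well above background. By this probe the groups overlapped. With the WT host readings raised to the lowest measurable signal on their arrays, it was 4.76-fold higher in tumours 2 and 3. Over all 4 tumours the value was 1.26-fold, which uses the unmeasured readings of tumours 1 and 4 as they are. The probe gives no measured difference for tumours 1 and 4. The finding that Nrap was raised in all 4 tumours therefore rests on the bright probe.

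Klhl30, on chromosome 1 with 1 probe above background on all arrays, had the narrowest separation. Its WT host levels were -5.08, -4.10, -4.99 and -5.81 in tumours 1 to 4. Its Ext1S100a4Cre host levels were -3.11, -2.62, -2.49 and -3.83. The groups did not overlap, but tumour 4 of the Ext1S100a4Cre host lay only 0.27 log2 units above WT host tumour 2, against a scanner error of 0.21. The Ext1S100a4Cre host mean was -3.01 ± 0.61 (SD, n = 4; SD 0.70 in the WT host), a difference of 1.98 log2 units or 3.95-fold, and tumours 1 and 4 alone were 2.88-fold above the WT host mean.

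**Figure D1:**
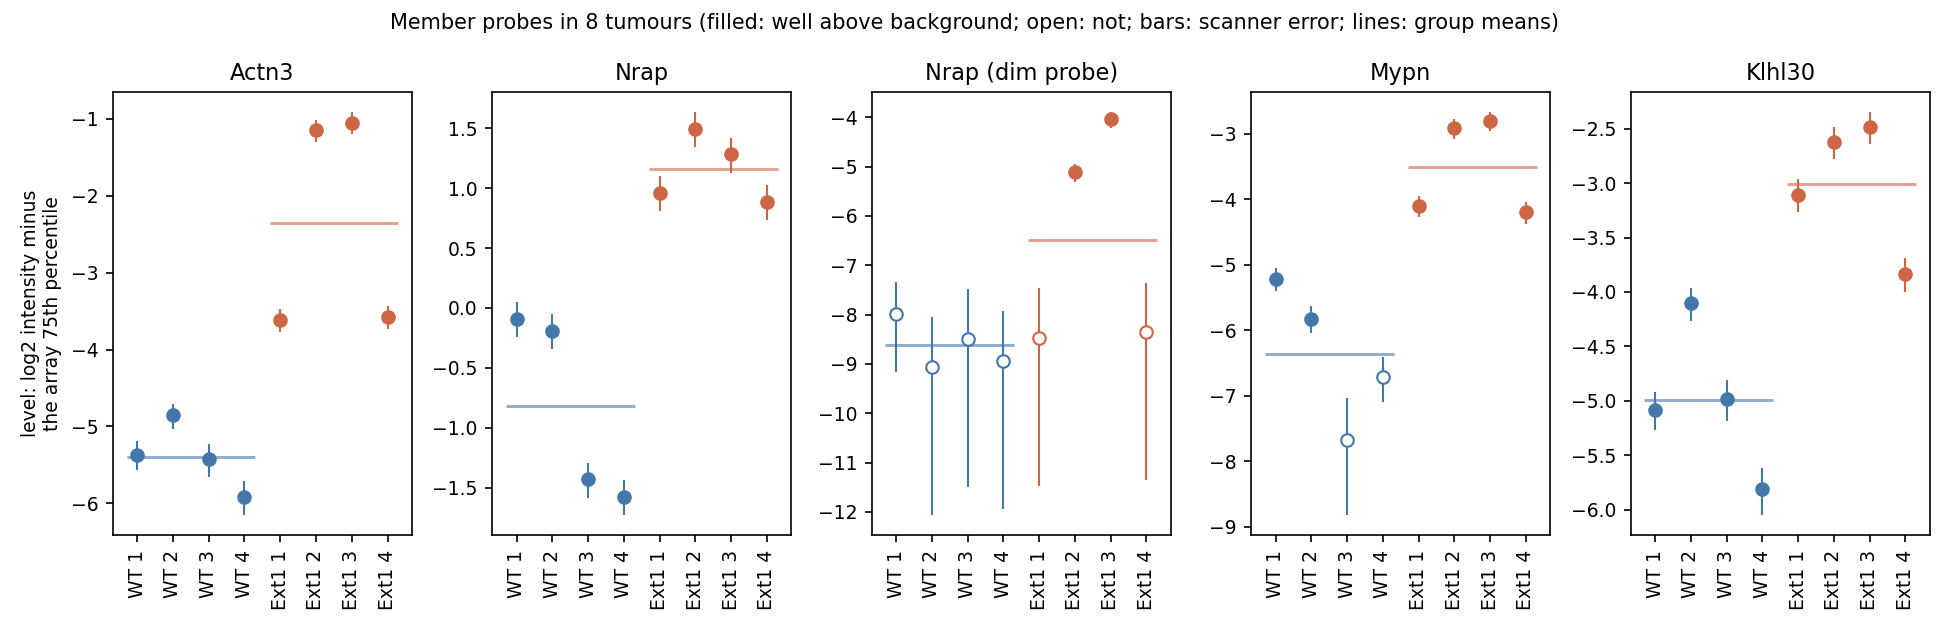
Level of each probe of the 4 genes (log2 intensity minus the array's 75th percentile, on an axis of its own per panel) in WT host tumours 1 to 4 (blue) and Ext1S100a4Cre host tumours 1 to 4 (orange). Filled points are well above background, vertical bars are the scanner's error and horizontal lines are group means. The orange points lie above the blue ones for Actn3, the bright Nrap probe, Mypn and Klhl30, and the dim Nrap probe is raised only in tumours 2 and 3.

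How far the separation depends on the scaling of the arrays differed among the 4 genes. In the intensities without any scaling between arrays the gap was 0.67 for Actn3, 0.58 for Mypn and 0.50 for the bright Nrap probe, but -0.31 for Klhl30, whose groups then overlapped. With quantile scaling the gaps were 1.30, 1.14, 0.94 and 0.29 for Actn3, Mypn, Nrap and Klhl30. With normexp background correction, which compresses dim signals, all 4 gaps were positive (0.32 to 0.92) and the differences were 1.86 for Actn3, 1.16 for Mypn and 1.10 for Klhl30. The difference for the bright Nrap probe was 1.85 under that correction, close to its value above.

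Within each slide row the Ext1S100a4Cre host mean was higher for all 4 genes, which follows from the lack of overlap they were chosen for. The size of the difference was not fixed in this way, and it was larger in row 2 than in row 1 for each. Row 1 held tumours 1 and 2 of either host and row 2 held tumours 3 and 4. For Nrap the difference was 1.37 in row 1 and 2.59 in row 2, and for Mypn it was 2.01 and 3.69. For Actn3 it was 2.73 and 3.36, and for Klhl30 it was 1.73 and 2.24. The WT host readings of Mypn in row 2 were both not well above background, and with them raised to the lowest measurable signal its row 2 difference was 3.1. For Nrap the lower WT host tumours were the 2 of row 2.

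All 4 genes lacked overlap between the host groups, the pattern they were chosen for, as did 1062 of 31281 genes in the same direction (3.4%). A further 356 (1.14%) lay wholly below the WT host tumours. With a mean at least 2-fold higher as well, 119 genes (0.38%) remained, and 13 (0.0416%) had no overlap and a difference at least as large as the smallest of the 4. Besides the 4, the named genes among the 13 were Mb, Mymx, Mybpc1, Rasl10b, Insyn2b and Ttll9, the first 3 being muscle genes. The choice of the 4 genes rests on this gap, so their places in its order describe the choice: 2 of 31281 for Actn3, 4 for Mypn, 5 for Nrap and 132 for Klhl30. For tumours 1 and 4 alone, 8057 genes (25.8%) were above every WT host tumour in both, a share that was 1.28% without scaling and 41.0% with normexp correction. A mean of these tumours at least 2-fold above the WT host mean was rarer, at 654 genes (2.09%). All 4 genes were among them, which again describes their choice, since they were chosen for being high in these tumours. Across all genes no host difference passed an adjusted p of 0.05 in limma (0%), and 2049 genes (6.55%) had an unadjusted p under 0.05, of which 1374 were higher (4.39%) and 675 lower (2.16%). The mean was higher in the Ext1S100a4Cre host for 58.1% of all genes.

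**Figure D2:**
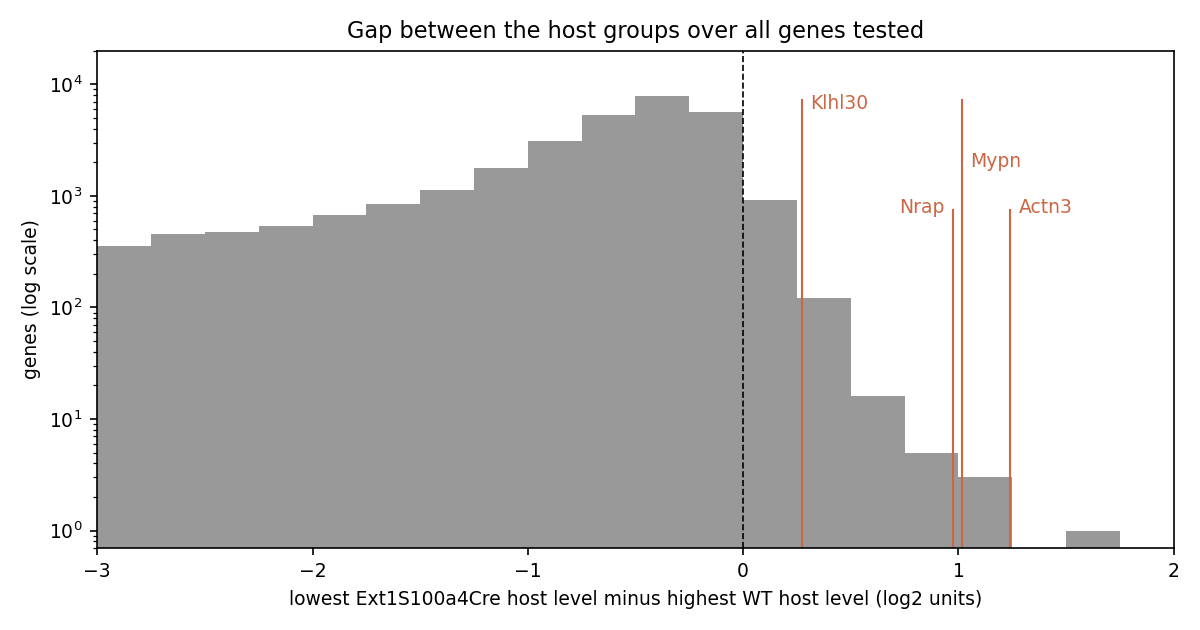
Number of genes (log axis) by gap, the lowest Ext1S100a4Cre host level minus the highest WT host level in log2 units, over 31281 genes; 2085 genes below -3 are not drawn. Orange lines mark the 4 genes: Klhl30 at 0.27 lies in the body of the genes right of 0, while Nrap, Mypn and Actn3 lie between 0.98 and 1.24, where few genes are found.

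Most other genes of the sarcomere were not above the WT host in both tumours 1 and 4. Of 26 skeletal muscle contractile genes on the array, 21 were measured, and 19 had a higher mean in the Ext1S100a4Cre host, with a median difference of 1.41 log2 units against 0.05 over all genes. Without Ext1S100a4Cre host tumour 3 that median was 0.87. An unadjusted p under 0.05 in limma with a higher level was found for 5 of the 21, against the 4.39% of all genes, and for 0 after adjustment. Of the 21, 1 (4.76%, against the 25.8% of all genes given above), Mybpc1, had tumours 1 and 4 both above every WT host tumour, and for these tumours the median difference was -0.16, against 0.10 over all genes. The mean level of the list, centred on each gene's mean, ran from -0.97 to -0.75 in the WT host. It was -1.11, 2.34, 2.54 and -0.47 in Ext1S100a4Cre host tumours 1 to 4. Tumours 2 and 3 were thus far above the WT host, tumour 1 was below it, and tumour 4 was slightly above it.

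The 4 genes can be set against that list tumour by tumour, as a description only, since they were chosen for being high in tumours 1 and 4. The centred level of Actn3 minus that of the contractile list was 1.36 in tumour 1, 0.77 in tumour 4, 0.38 and 0.28 in tumours 2 and 3, and between -1.30 and -0.21 in the WT host. For Nrap it was 1.90 and 1.19 in tumours 1 and 4 but -1.02 and -1.43 in tumours 2 and 3, with 0.55, 0.42, -0.63 and -0.99 in WT host tumours 1 to 4. Mypn gave 1.94 and 1.20 against -0.33 and -0.42, with 0.52 in WT host tumour 1. Klhl30 gave 2.00 and 0.65 against -0.96 and -1.02, and it reached 0.68 in WT host tumour 2. Actn3 thus moved with the contractile genes in tumours 2 and 3, and the other 3 genes moved less than they did. In tumours 1 and 4 all 4 genes were above the list, as Nrap was in WT host tumours 1 and 2, Mypn in WT host tumour 1 and Klhl30 in WT host tumour 2.

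**Figure D3:**
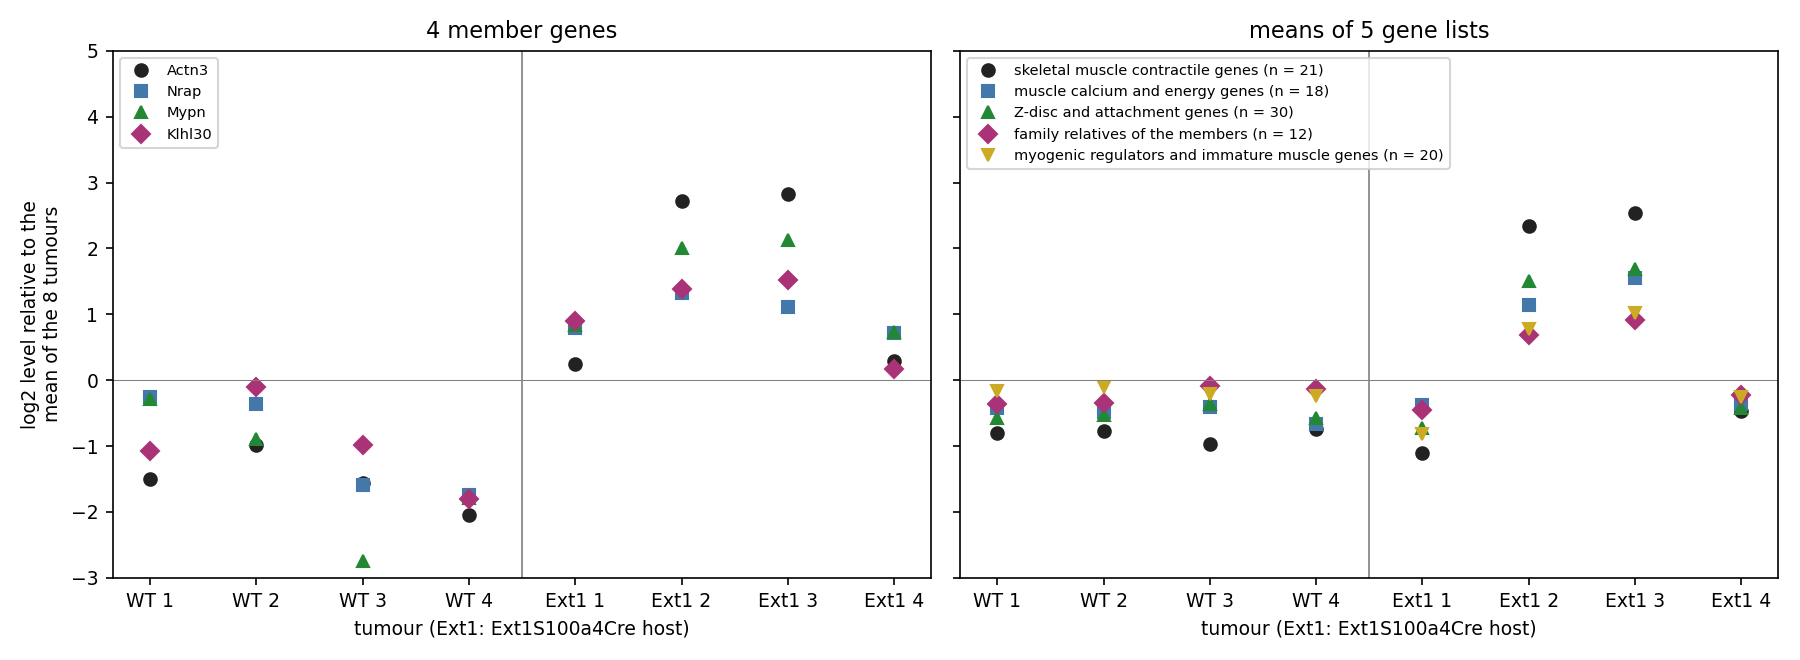
Log2 level relative to the mean of the 8 tumours, for the 4 genes (left) and for the mean of 5 lists of muscle genes (right, n is the number of measured genes), in each tumour. Tumours 2 and 3 of the Ext1S100a4Cre host are high in both panels, while tumours 1 and 4 are above all WT host tumours on the left and close to them on the right.

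Single contractile genes differed widely. Acta1, the skeletal muscle actin, stood at -4.08, 1.59, 2.37 and -2.46 in Ext1S100a4Cre host tumours 1 to 4, against -2.83 to -2.17 in the WT host. It was thus lower in tumour 1 than in any WT host tumour. Ttn, the giant spring protein of the sarcomere, stood at -2.35, -1.67, -5.17 and -4.61 in WT host tumours 1 to 4 and at -1.76, -0.41, 0.52 and -1.17 in the Ext1S100a4Cre host. Only tumour 1 of the Ext1S100a4Cre host fell below the highest WT host tumour, and WT host tumours 3 and 4 were the lowest, as for Nrap and Mypn. The difference in Ttn was 2.75 log2 units (SE 0.85). Mybpc1, a myosin-binding protein, lacked overlap, with WT host levels from -4.74 to -4.45 and Ext1S100a4Cre host levels of -4.09, 0.39, 0.12 and -4.26. Tnnt3 and Myh1, the fast troponin T and a fast myosin, differed by 2.73 and 6.12 (SE 0.95 and 2.40), but neither separated the groups, and Myh1 was well above background in 1 of the WT host tumours, so its difference is set against mostly unmeasured signal.

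Among 23 genes of muscle calcium handling and energy supply on the array, 18 were measured and 17 had a higher mean, with a median difference of 0.75. Of the 18, 7 had an unadjusted p under 0.05 in limma with a higher level (38.9%, against 4.39% of all genes). The groups did not overlap, with a higher level, for 4 (22.2%, against 3.4% of all genes). Tumours 1 and 4 were both above every WT host tumour for 6 (33.3%), against the 25.8% of all genes given above. Jsrp1, a protein of the sarcoplasmic reticulum, stood at -0.10, -0.48, -1.38 and -0.49 in the WT host. In the Ext1S100a4Cre host it stood at 0.04, 0.61, 0.71 and 0.39, so the groups did not overlap, by a margin smaller than for any of the 4 genes. Mb, the oxygen store myoglobin, was between -8.22 and -6.85 in the WT host and at -5.99, -0.94, 0.23 and -6.16 in the Ext1S100a4Cre host. Among the WT host tumours, 1 gave a reading well above background. Eno3, the muscle enolase, lacked overlap only narrowly with a difference of 0.73 (SE 0.26), and Stac3, an adaptor of the calcium channel, differed by 0.40 (SE 0.15). Ckm, the muscle creatine kinase, was at -4.77 and -5.13 in tumours 1 and 4, inside its WT host range of -5.10 to -4.43 for the first and just below it for the second.

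The 39 other Z-disc and attachment genes on the array, the structures in which 3 of the 4 genes work, gave 30 measured genes. Of these 23 had a higher mean, with a median difference of 0.62 over all 4 tumours and of 0.02 for tumours 1 and 4. The first of these medians was 0.38 without Ext1S100a4Cre host tumour 3. An unadjusted p under 0.05 with a higher level was found for 5 (16.7%, against 4.39% of all genes). The groups did not overlap for 1 of the 30 (3.33%, against 3.4%), Ankrd23, an ankyrin repeat protein of muscle. It stood between -1.74 and -1.63 in the WT host and at -1.08, -0.40, -0.23 and -1.14 in the Ext1S100a4Cre host. The difference in Ankrd23 was 0.98 log2 units (SE 0.22). Des, the intermediate filament desmin, stood at -4.19 and -3.50 in tumours 1 and 4 and at -0.39 and -0.24 in tumours 2 and 3, against -4.09 to -3.08 in the WT host. Myom3, Myom1 and Ldb3 differed by 3.01, 1.82 and 1.07 (SE 0.98, 0.62 and 0.41), each with overlapping groups.

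Among 28 myogenic regulators and genes of immature muscle, 20 were measured and 8 had a higher mean, with a median difference of -0.07. Unadjusted p values under 0.05 fell on 2 higher genes, Mymx and Myh8, and on 2 lower ones, of the 20 (4.39% and 2.16% of all genes). Mymx encodes myomixer, a small membrane protein of myoblast fusion, and stood at -2.10, -1.73, -5.44 and -3.05 in the WT host. In the Ext1S100a4Cre host it stood at -0.53, 0.71, 0.28 and -0.46. Its groups did not overlap, and its gap of 1.20 placed it between Actn3 and Mypn. Myod1, a master regulator of the lineage, was between -6.28 and -6.14 in the WT host and at -6.17, -5.35, -4.85 and -6.15 in the Ext1S100a4Cre host, so tumours 1 and 4 lay within the WT host range. Myog, its partner in differentiation, was well above background only in tumours 2 and 3. Pax3, which acts in muscle precursors and elsewhere, differed by -0.64 log2 units (SE 0.27).

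**Figure D4:**
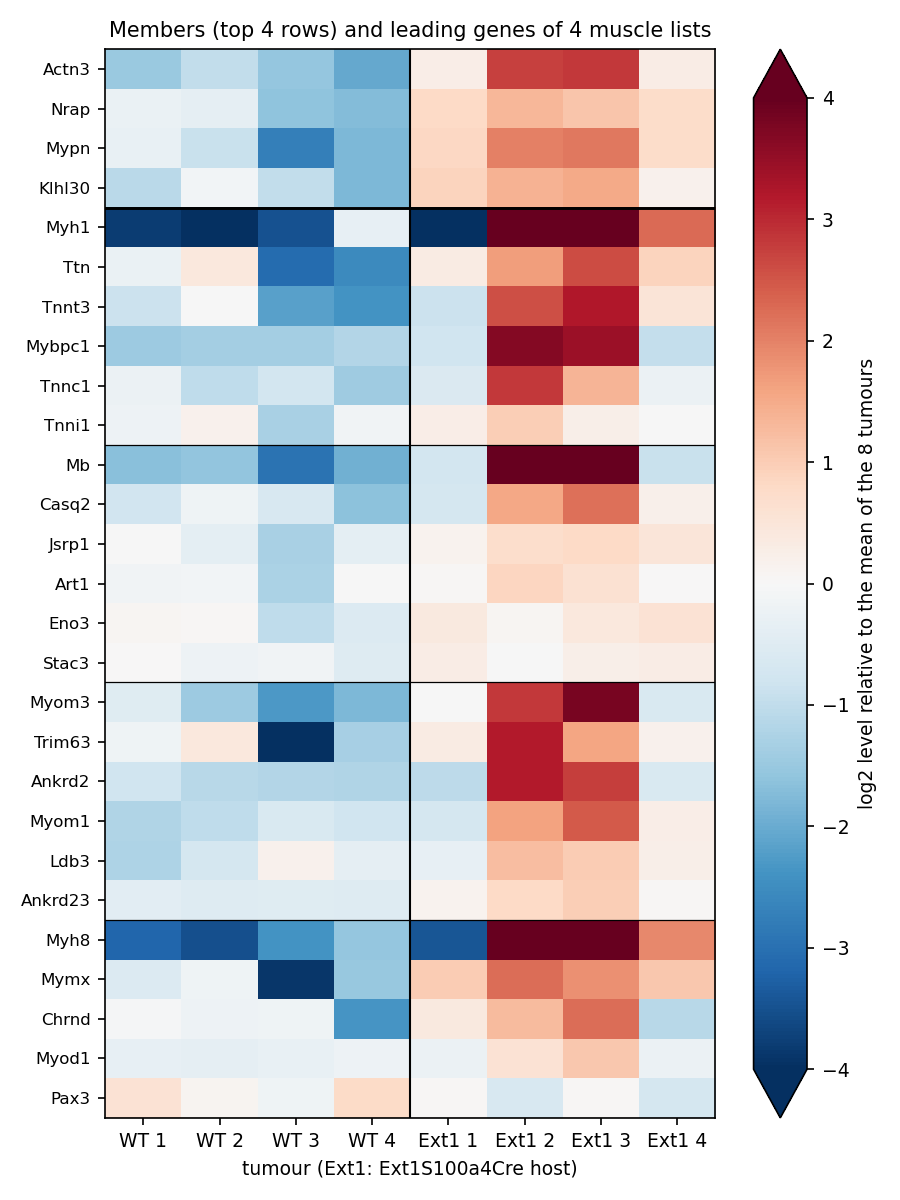
Log2 level of each gene relative to its mean over the 8 tumours (colour, held at -4 and 4), for the 4 genes and for up to 6 genes with the smallest unadjusted p of each of 4 muscle lists, ordered within a list by difference. Tumours 2 and 3 of the Ext1S100a4Cre host are red in nearly all rows. In tumours 1 and 4 the 4 genes are above their mean, as are several others, among them Mymx, Ttn, Jsrp1, Eno3, Stac3 and Ankrd23. Mybpc1, Mb and Ankrd2 are below theirs.

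Over the 5 lists, which share no member with the 4 genes, 131 genes were on the array and 99 were measured. Of these 7 had no overlap with a higher level (7.07%, against 3.4% of all genes) and 12 had tumours 1 and 4 both above the WT host (12.1%, against 25.8%). All 131 genes were also read without the requirement of measurable signal. Then 17 (13%) lacked overlap and 23 (17.6%) had tumours 1 and 4 both above the WT host, against 2.78% and 29.2% of all genes read so, many of them at readings not well above background. Of the 131, 87 were well above background in all 4 WT host tumours, 83 in both tumours 1 and 4, and 123 in both tumours 2 and 3 of the Ext1S100a4Cre host.

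The relatives of the 4 genes within their own families mostly did not follow them. Actn1 and Actn4, the actinins of non-muscle cells, differed by -0.02 and 0.13 log2 units (SE 0.16 and 0.11). Actn2, the other muscle actinin, was at -6.35, -6.66, -4.74 and -6.73 in the WT host and at -7.47, 1.03, 1.43 and -6.75 in the Ext1S100a4Cre host. It was thus raised in tumours 2 and 3, and in tumours 1 and 4, where Actn3 was above the WT host, it was not well above background. Its difference of 3.18 (SE 2.12) was as large as that of Actn3 but came from 2 tumours.

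In the nebulin family of Nrap, Neb, the long ruler of thin filaments, was well above background only in 1 WT host tumour and in the Ext1S100a4Cre host tumours 2 and 3. Nebl and Lasp1, expressed more widely, differed by 0.26 and -0.13 (SE 0.49 and 0.14). In the palladin family of Mypn, Palld differed by 0.11 (SE 0.29), its probes disagreed in sign, and Myot, the myotilin of the Z-disc, was well above background only in tumours 2 and 3. Among the Kelch genes, Klhl34 differed by 0.63 (SE 0.30), Klhl40 by 0.95 (SE 0.85) and Klhl31 by 0.59 (SE 0.34). Klhl41 was well above background only in tumours 2 and 3, while Klhl29, Klhl32 and the ligase scaffold Cul3 differed by -0.23, 0.05 and 0.02. Of the 12 relatives measured out of 19, 9 had a higher mean (58.1% of all genes did), 0 had an unadjusted p under 0.05 in limma (6.55%) and 0 lacked overlap with a higher level (3.4%). Actn4 and Klhl34 had tumours 1 and 4 both above every WT host tumour (16.7% of the 12, against 25.8% of all genes). Klhl33, Klhl38, Kbtbd12 and Kbtbd13 were not well above background on any array.

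**Figure D5:**
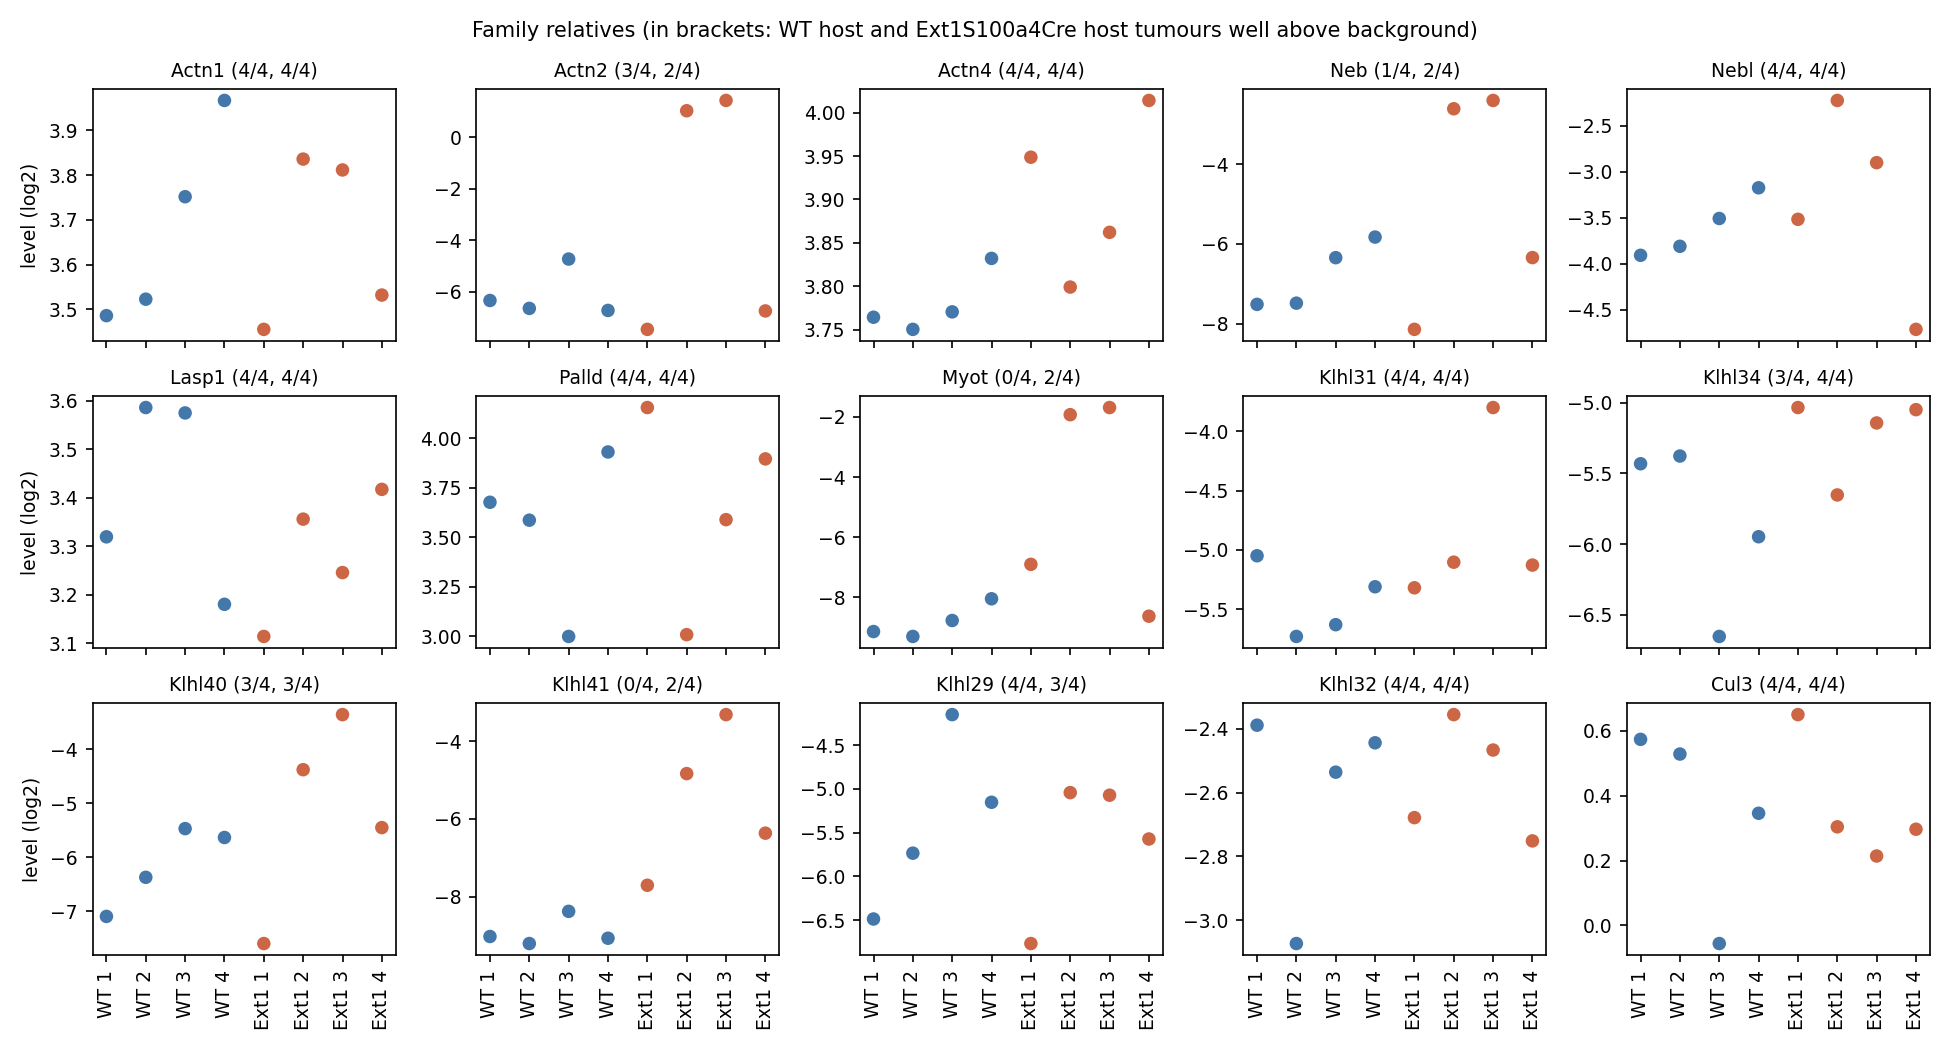
Level (log2 intensity minus the array's 75th percentile) of 15 relatives in WT host tumours (blue) and Ext1S100a4Cre host tumours (orange), on an axis of its own per panel; the brackets count tumours well above background in each group. Actn2, Neb, Myot and Klhl41 are raised by several log2 units in tumours 2 and 3, and Actn1, Lasp1 and Cul3 span less than 1 log2 unit over all 8 tumours.

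The 4 genes were also compared with other named genes, leaving out names of predicted genes and clones, by the root mean square difference of centred levels over the 8 tumours, a measure in which 0 is an identical pattern. Among 15862 genes, Klhl30 was in place 4 for Nrap, and Nrap was in place 1 for Klhl30 (difference 0.45). Nrap was in place 4 for Mypn (0.62). Actn3 had its nearest genes in Tnnt3 (0.65), Myom3, Vgll2, Ankrd2 and Mypn, all of them known from striated muscle. Nrap was in place 18 for Actn3, whereas Actn3 was in place 1454 for Nrap. Klhl30 was in place 11 for Actn3. The measure counts the size of the changes as well as their shape, so it does not show whether the 4 genes share 1 shape. In size they differed. The range over the 4 Ext1S100a4Cre host tumours was 2.57 log2 units for Actn3, 1.39 for Mypn, 1.34 for Klhl30 and 0.61 for the bright Nrap probe.

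The nearest genes to Nrap were Atp6v0a4 (0.38), Ascl4, Pla2g3, Klhl30 and Slc25a18, and those to Klhl30 after Nrap were Ppp2r2b, Atp6v0a4, Pla2g3 and Ttll9. Atp6v0a4, a subunit of the proton pump, stood at -2.41, -1.81, -3.65 and -2.88 in the WT host and at -1.28, -0.77, -1.01 and -1.61 in the Ext1S100a4Cre host. Pla2g3, a secreted phospholipase, stood at -4.91, -4.86, -5.55 and -5.36 and at -4.31, -2.71, -3.03 and -3.65. Neither belongs to the muscle lists. Both lacked overlap (3.4% of all genes did), which follows in part from their likeness to genes chosen for that pattern. The nearest genes to Mypn were Mymx (0.53), Ascl4, Ttn, Nrap and Rasl10b. Ascl4, a transcription factor, stood at -3.30, -3.67, -6.15 and -5.07 in the WT host and at -2.62, -2.27, -2.53 and -3.01 in the Ext1S100a4Cre host, with WT host tumours 3 and 4 lowest as for Mypn.

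The genes beside the 4 on their chromosomes showed smaller differences. Of 24 neighbours, 3 on each side of each gene, 16 were on the array and 13 were measured. Their differences ran from -0.17 to 0.84 log2 units. An unadjusted p under 0.05 in limma was found for 1 of the 13, Zdhhc24 beside Actn3 (0.70, SE 0.30), against 6.55% of all genes. Also 1 of the 13, Ccs beside Actn3, lacked overlap with a higher level, against 3.4% of all genes, with a difference of 0.23. Actn3 and Nrap lie on the same chromosome but are not neighbours.

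Markers of other cell types were read beside these results. A higher mean in the Ext1S100a4Cre host was found for 58.1% of all genes, the share to set beside the counts below. Of 8 measured cardiac markers 6 had a higher mean, with a median difference of 0.10. Of the 11 cardiac markers on the array, 8 were well above background in all 4 WT host tumours, and 3, Ryr2, Nkx2-5 and Tbx20, on no array. Tnnt2, the heart and embryonic muscle troponin T, lacked overlap with a difference of 1.41 (SE 0.50). Smooth muscle and pericyte markers had a higher mean in 2 of 10, and none had tumours 1 and 4 both above the WT host (25.8% of all genes did). Fibroblast markers had a higher mean in 1 of 12, with a median difference of -1.63, and of -2.69 for tumours 1 and 4. Their summed level, in multiples of the array's 75th percentile, ran from 121.6 to 546.9 in the WT host and from 21.8 to 214.0 in the Ext1S100a4Cre host. Erythrocyte markers had a higher mean in 5 of 5, with a median difference of 1.58, and of 1.85 for tumours 1 and 4. For 4 of the 5 (80%, against 25.8% of all genes) tumours 1 and 4 were both above every WT host tumour. An unadjusted p under 0.05 in limma with a higher level was found for 4 (against 4.39% of all genes), and 0 lacked overlap over all 4 tumours. The summed level of these markers ran from 102.3 to 334.0 in the WT host and from 241.4 to 1134 in the Ext1S100a4Cre host. Adipocyte markers were high in Ext1S100a4Cre host tumours 2 and 3, as the muscle lists were, with centred means of 1.36 and 3.12. Their centred mean was -2.02 and -1.76 in tumours 1 and 4 of that host. In the WT host it was -1.53, -1.13, 2.59 and -0.63 in tumours 1 to 4. The muscle lists were not high in WT host tumour 3, where the centred mean of all 5 together was -0.43. The part of these markers in the levels of the 4 genes and the muscle lists was not tested.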

How the data were processed

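Whole MC38 tumours from 4 WT and 4 Ext1S100a4Cre hosts were read on 1-colour Agilent arrays from 0.5 µg of RNA each. The scanner files deposited by the authors hold spot intensities on a linear scale, background-subtracted by Agilent Feature Extraction 10.7.3.1 per the file headers (9.1 per the submitters' processing notes). Flags for signal well above background are deposited beside them. The deposited series matrix holds the same intensities, within 0.01% for 99.4735% to 99.4983% of values per array, with no scaling. Precision is limited by the number of arrays.

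From these, log2 of the processed intensity minus each array's 75th percentile was computed over probes that are not controls. Of 56605 probes, 39716 rose well above background on 4 or more of 8 arrays and were kept. The brightest kept probe on average stood for a gene, which left 31281 genes and transcripts. Names came from a RefSeq table of GRCm38.p6, which differs from the headers' mm9, so no coordinates are given. The host comparison used limma 3.58.1 under R 4.3.3 (two-sided, no covariates, Benjamini-Hochberg adjustment over all 31281), with data.table (version 1.17.8) and jsonlite 2.0.0. The design text gives 4 mice a host group.

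The 4 genes, the lists and the alternatives were chosen with earlier results of these data known. The values of 1 list gene are not reported here. Named are the 4 genes; up to 4 genes of each list by smallest unadjusted p; Actn1, Actn2, Actn4, Neb, Nebl, Lasp1, Palld, Myot, Ttn, Acta1, Ckm, Myog, Myod1, Des, Cul3 and any relative; the 5 genes nearest each of the 4; and, chosen after their values were seen, Mb, Rasl10b, Insyn2b, Tnnt2, Ryr2, Nkx2-5, Tbx20, Eif2s3y, Krt8, Epcam, Zdhhc24 and Ccs. Keratinocyte (4 of 7 with a higher mean), leukocyte (2 of 9), endothelial (0 of 7), nerve (0 of 7) and epithelial (7 of 9) markers were read as well. Alternatives were normexp correction (offset 50), quantile and median scaling, unscaled values, no filter, a filter on all 8 arrays, averaged probes, replicate and slide row blocks, and leaving out tumours.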

Additional observations from a re-analysis of the deposited data

Results flagged for a closer look

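Of 102 groups of 4 tumours, over 41 named genes, the 5 probes of the 4 genes and the list means, 4 held a tumour far from the others; chance gives about 1 in 20, and none was a probe of Actn3, Nrap, Mypn or Klhl30. Klhl31 stood at -3.80 in Ext1S100a4Cre host tumour 3 and at -5.32 to -5.10 in the other 3 of that host. Des read -3.08 in WT host tumour 3, against -4.09 to -4.03 in the other tumours of that host. Ppp2r2b stood at -5.61 in WT host tumour 4 against -4.82 to -4.69, and Ttll9 stood at -3.16 in Ext1S100a4Cre host tumour 1 against -2.26 to -2.14.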

How the results depend on the processing

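Actn3, Nrap, Mypn and Klhl30 kept a higher mean in the Ext1S100a4Cre host under each alternative that gave a value; the filter on all 8 arrays gave none for Mypn. Normexp correction gave differences of 1.86 for Actn3, 1.16 for Mypn and 1.10 for Klhl30; it gave 1 gene at an adjusted p under 0.05, 2314 higher and 400 lower genes at an unadjusted p under 0.05 (1374 and 675 as reported), 35 list genes higher (19 as reported) and a median of 0.061 for the myogenic list. Unscaled intensities, which lower the median difference of all genes from 0.05 to -0.20, gave 174 higher and 2554 lower genes, 91 genes without overlap, 8 list genes and a median of -0.13 for the relatives. Median scaling left 588 genes without overlap, and no filter gave a myogenic median of 0.26. Leaving out Ext1S100a4Cre host tumours 2 and 3, chosen after seeing the data, gave 1.80 for Actn3, 8057 genes without overlap, and medians of -0.16 for the contractile list and -0.13 for the relatives. The causes were not tested.

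With any 1 tumour left out, all 4 genes stayed free of overlap. That was fixed beforehand, since leaving out a tumour cannot create overlap. Leaving out 1 tumour gave 2.61 to 3.47 for Actn3, 1.72 to 2.22 for Nrap, 2.41 to 3.23 for Mypn and 1.71 to 2.28 for Klhl30. It gave 0 to 2 genes at an adjusted p under 0.05 (2 without WT host tumour 3), 976 to 1738 higher and 450 to 1226 lower at an unadjusted one (1226 without Ext1S100a4Cre host tumour 3), and 1312 to 2587 without overlap, most without Ext1S100a4Cre host tumour 3. Median differences ran from 0.87 to 1.96 for the contractile list, 0.59 to 1.06 for calcium and energy, 0.38 to 0.91 for the Z-disc, 0.10 to 0.19 for the relatives and -0.13 to -0.03 for the myogenic list. List genes higher ran from 7 (without Ext1S100a4Cre host tumour 3) to 39 (without its tumour 1), with 8, 30 and 10 without its tumours 2 and 4 and WT host tumour 3. With the replicate number as a block, 1653 genes were lower at an unadjusted p under 0.05 in limma. The differences in the 4 genes cannot move under that block, since each number holds 1 tumour of each host. Same-numbered tumours correlated at 0.49, -0.16, 0.59 and -0.25 for numbers 1 to 4, against -0.58 to 0.31 for the other pairs. Whether the numbers mark pairs was not tested. Dim signals, above all in Mypn and the second Nrap probe, limit what the WT host values show.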
